A study of Mus musculus with 18 samples.

Results

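MicroRNA (miRNA) contacts of mouse thymocytes were compared between wild-type mice and knockouts of the hairpin genes Mir181a-1 and Mir181b-1, in 6 of the 18 samples of the series. The 6 libraries, 3 per genotype, were taken by their titles as Ago2 immunoprecipitations (IP) without the further miR-181 enrichment. All came from total thymocytes of 6-week-old mice kept under SPF conditions, and the cells were crosslinked with 254 nm UV light. The wild type was C57BL/6 and the knockout carried the allele B6.Mirc14tm1.1Ankr, with no treatment or other allele named for either group. The 6 input samples were not analysed here, and the 3 enriched wild-type libraries served only to define sites and to class sites and genes.

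The assay, miR-eCLIP, joins a miRNA by ligation to the RNA piece bound in 1 Argonaute 2 (Ago2) complex, so that a chimeric read names the miRNA and places its contact in the genome. Each such read is called a contact below. A miRNA guides Ago2 mainly by its seed, bases 2 to 8 from the 5′ end, and Ago2 with its partners then lowers the stability or translation of the bound mRNA. The miR-181 family is abundant in immature thymocytes and is known for tuning T cell receptor signalling there. Its members come from 3 loci, and miR-181a-5p and miR-181b-5p are each made from a gene at the deleted locus on chromosome 1 and from another at an intact locus on chromosome 2. miR-181c-5p and miR-181d-5p come from an intact locus on chromosome 8.

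The 4 members are shown because they share a seed (capitals) and differ only outside it, so that reads of all 4 were counted as miR-181 contacts. Sequences are those of RefSeq for GRCm38.p6, 5′ to 3′.
miR-181a-5p: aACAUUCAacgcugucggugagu
miR-181b-5p: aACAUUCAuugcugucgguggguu
miR-181c-5p: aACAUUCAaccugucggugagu
miR-181d-5p: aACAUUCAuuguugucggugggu
Counted from the 5′ end of miR-181a-5p, miR-181d-5p differs by A9U, C10U, C12U and A21G. miR-181b-5p differs by A9U, C10U and A21G, and it is 24 nt long against 23 nt.

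Wild-type libraries 1, 2 and 3 held 117849, 69074 and 43983 chimeric reads, and the knockout libraries 60789, 67639 and 52100. miR-181 took 35510, 21354 and 14201 of the wild-type reads and 803, 940 and 750 of the knockout reads. The remaining 82339, 47720 and 29782 wild-type reads and 59986, 66699 and 51350 knockout reads belonged to other miRNAs. All levels below are reads per 1000000 reads of these other miRNAs (rpm), so that the loss of miR-181 does not raise every other value. On that scale 3 reads in a library correspond to 36.4 to 101 rpm. Thymocyte markers were present in both genotypes, with 1610 wild-type and 1602 knockout reads of other miRNAs over 10 genes. Markers of other cells were near 0: 6 and 1 reads over 5 B cell genes, 8 and 8 over 6 myeloid genes, 11 and 5 over 6 erythroid genes, and none over 5 genes of thymic epithelium. Among 5 stromal genes there were 55 and 77 reads, of which Pecam1 had 54 and 77, while Col1a1, Col1a2 and Col3a1 had 0. Ptcra, a marker of early thymocytes, had 2 and 0 reads. Contacts depend on the amount of a transcript as well as on its binding, and fewer cells of a type cannot be told apart from less RNA or fewer contacts per cell. The labels do not say that replicates are separate animals, so p-values measure only the spread between these libraries.

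The knockout lost nearly all contacts of miR-181a-5p and miR-181b-5p. The miR-181 share of chimeric reads was 30.1%, 30.9% and 32.3% in wild type and 1.32%, 1.39% and 1.44% in the knockout, and the widest 95% Wilson interval within a library was 31.9% to 32.7%. The groups lay far apart (exact two-sided permutation p = 0.1, the smallest that 3 against 3 libraries allow). miR-181a-5p had 325800, 342000 and 361900 rpm in wild type and 4934, 4918 and 5433 in the knockout. Its mean fell 67.4-fold, from 343200 ± 18100 to 5095 ± 293 (SD, n = 3 each; exact permutation p = 0.1, adjusted p = 0.133 over the 4 members). miR-181b-5p fell 35.4-fold, from 101300 ± 5040 to 2863 ± 157, also without overlap. Both names remained in every knockout library. For these members the knockout keeps only the chromosome 2 locus, and the mature sequences alone do not trace a read to a locus.

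The members of the intact chromosome 8 locus stayed near their wild-type levels. miR-181c-5p had 3613 ± 420 rpm in wild type and 3101 ± 136 in the knockout, and the groups overlapped (SD, n = 3; exact permutation p = 0.2). miR-181d-5p had 3707 ± 163 and 2970 ± 239, a ratio of 1.25 without overlap of the groups (exact permutation p = 0.1, adjusted p = 0.133). The composition of the family therefore differed. In wild type 75.9% of its reads were miR-181a-5p, 22.5% miR-181b-5p, 0.806% miR-181c-5p and 0.822% miR-181d-5p. In the knockout the shares were 36.2%, 20.5%, 22.2% and 21.1%, of 2493 reads in all. miR-181a-1-3p, the opposite arm of the deleted Mir181a-1 hairpin, had 50 reads in wild type against 0 in the knockout. miR-181a-2-3p, the arm from the intact chromosome 2 locus, had 5 reads in each genotype.

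**Figure D1:**
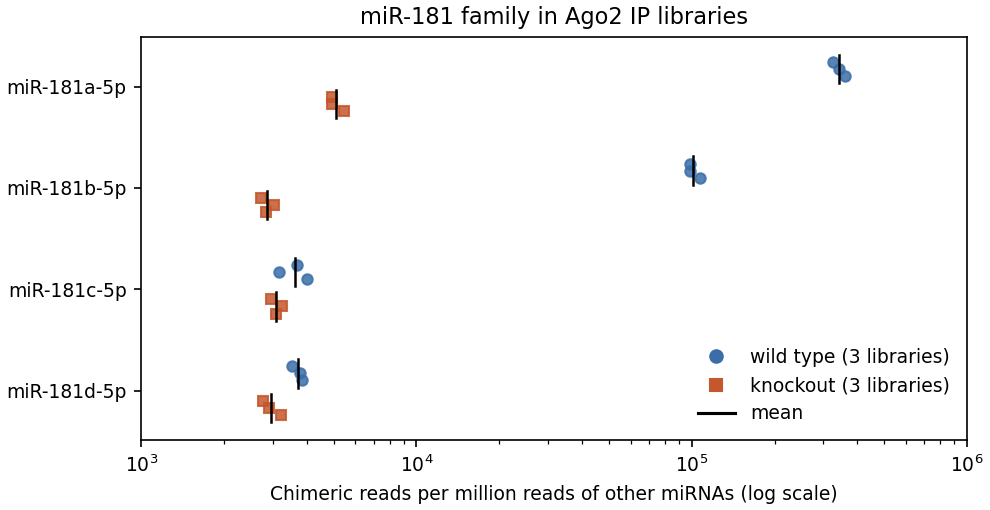
Chimeric reads of each miR-181 member per 1000000 reads of other miRNAs (log axis), 1 point per Ago2 IP library, with a line at the mean of 3 libraries per genotype. miR-181a-5p and miR-181b-5p fell 67.4-fold and 35.4-fold, whereas the means of miR-181c-5p and miR-181d-5p lay between 2970 and 3707 in both genotypes.

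Reads at the hairpins themselves check the genotype. Mir181a-1 had 540, 378 and 363 miR-181 reads in the wild-type libraries and 0 in each knockout library, at least 174-fold lower against 3 reads per library. Mir181b-1 had 237, 179 and 136 reads in wild type against 0 in the knockout, which is at least 73.0-fold lower. The intact Mir181a-2 hairpin had 15, 7 and 8 reads in wild type against 17, 19 and 10 in the knockout. Its change on the log2 scale was 0.45 (SE 0.39; edgeR adjusted p = 0.245), and the groups overlapped. Mir181b-2, the other hairpin of that locus, had 6 wild-type and 0 knockout reads.

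Among gene spans, the loss of miR-181 contacts was general. Of 275 spans with enough reads for the test, 274 were lower in the knockout (99.6% called lower; edgeR quasi-likelihood test, adjusted p at most 0.05), and Mir181a-2 was the exception. Spans passed the filter through their wild-type reads, so this share describes the tested spans and not all genes. Over the 272 tested spans that are not hairpins, 21500 wild-type and 765 knockout reads gave a pooled 31.3-fold fall in rpm. Over 7782 genes too sparse for the test, 43787 and 1520 reads gave 32.1-fold, and the whole family fell 32.2-fold. Of 1638 genes with at least 10 wild-type miR-181 reads, hairpins left out, 844 (51.5%) had none in the knockout, and none of the 1638 was higher there. Even among the 177 genes with at least 50 wild-type reads, 23 had 0 knockout reads. Apart from the hairpin Mir181a-2, the most miR-181 reads any gene kept in the knockout was 24, in Cd4.

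Some genes of the list of the T cell receptor complex, coreceptors and proximal signalling held many of these contacts. Cd4, the coreceptor for MHC class II, had the most wild-type reads of any gene other than the hairpins, 220, 105 and 46, and 7, 8 and 9 in the knockout. This is 2140 ± 566 against 137 ± 32.9 rpm (SD, n = 3), a log2 difference of -4.00 (SE 0.364; edgeR adjusted p = 9.06e-26), with every wild-type library above every knockout library. In wild type 88.9% of the Cd4 reads lay in a peak of 209 nt on the minus strand (chromosome 6, 124866062 to 124866270, mm10). Only 28.6% of its wild-type miR-181 reads were named miR-181a-5p, against 75.9% over the family. The knockout reads of Cd4 were divided evenly, 12 of miR-181a-5p or b-5p and 12 of c-5p or d-5p.

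Cd8a, a subunit of the coreceptor for MHC class I, had 55, 39 and 14 reads in wild type against 2, 1 and 0 in the knockout. Over the pooled libraries the ratio of rpm was 40.1 (exact 95% counting interval, 13.4 to 197). Themis, an adaptor of receptor signalling in thymocytes, had 188, 102 and 60 reads against 3, 7 and 4 (log2 fold change -4.73, SE 0.392; edgeR adjusted p = 1.99e-30). Its reads were spread over a span of 215461 nt, with 56 of 350 in the densest peak. Cd247, the zeta chain of the receptor complex, had 57, 29 and 13 reads against 1, 2 and 1. Fyn, a Src-family kinase, had 50 reads in wild type against 1 in the knockout. Several other members had few wild-type reads, with 6 in Cd3d, 7 in Cd3e, 6 in Cd3g, 6 in Zap70, 9 in Lat and 2 in Csk. Over the 20 genes of this list, all with wild-type miR-181 reads, 1500 reads in wild type stood against 71 in the knockout, and each of the 7 tested genes was lower, as were 99.6% of all tested spans. The median log2 fold change of the 7 was -4.62, against -4.96 over all tested spans.

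Transcription factors of T cell development had 1580 wild-type and 67 knockout miR-181 reads over 21 genes. The 11 tested genes were all lower, with a median log2 fold change of -4.68. Over all tested spans 99.6% were lower, with a median of -4.96. Satb1, a chromatin organizer of thymocytes, had 169, 118 and 79 reads in wild type against 5, 5 and 2 in the knockout (log2 fold change -5.08, SE 0.411; edgeR adjusted p = 1.05e-31). Bcl11b, required for T cell commitment, had 121, 63 and 40 reads against 2, 1 and 5. Lef1, a partner of beta-catenin, had 70, 35 and 29 against 0, 1 and 1, and Ets1 had 62, 37 and 15 against 4, 2 and 2. Tox, needed for CD4 lineage development, had 82, 54 and 36 reads against 1, 6 and 3. None of these 5 genes had overlapping groups, and neither did 99.6% of all tested spans. Contacts in Satb1, Bcl11b and Tox were dispersed, with 12.8%, 12.9% and 17.4% of wild-type reads in the densest peak.

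In some short genes 1 site held most of the contacts. Tle5, a corepressor that antagonizes Groucho-type repression, had 152, 67 and 50 reads in wild type against 1, 3 and 1 in the knockout (log2 fold change -5.77, SE 0.438; edgeR adjusted p = 8.56e-35). Of its wild-type reads, 94.1% lay within 21 nt (chromosome 10, 81565888 to 81565908, plus strand). Ltb, which encodes lymphotoxin beta, had 106, 53 and 26 reads against 1, 2 and 0, or 68.7 times the rpm of the knockout over the pooled libraries (exact 95% counting interval, 23.1 to 336). Its peak held 94.1% of the reads and ended 129 nt before the end of the gene span (chromosome 17, 35196088 to 35196176, plus strand). In wild type miR-181 made 94.4% of all contacts of Ltb, 84.9% of those of Tle5 and 75.9% of those of Cd4.

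Btg2, an antiproliferative factor that recruits deadenylases, had 159, 125 and 70 miR-181 reads in wild type against 4, 2 and 3 in the knockout (log2 fold change -5.42, SE 0.427; edgeR adjusted p = 4.67e-33). Its peak of 124 nt held 81.4% of the wild-type reads (chromosome 1, 134076394 to 134076517, minus strand). Within that peak other miRNAs had 31 reads in wild type against 53 in the knockout, unlike in the peak of Cd4, where they had 16 and 6. Btg2 made up most of the Btg and Tob list, which had 373 and 11 reads over 5 genes.

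Phosphatases are the class through which miR-181a is best known to act on receptor signalling. Their list of 14 genes, which also holds the adaptor gene Sh2d1a (31 and 1 reads), had 522 wild-type and 22 knockout reads. Most of these reads belonged to Ptprc (CD45), with 160, 77 and 56 reads against 4, 4 and 6 (log2 fold change -4.48, SE 0.375; edgeR adjusted p = 7.5e-30). Dusp5, a nuclear phosphatase of ERK, had 27, 14 and 6 reads against 1, 0 and 2, or 17.4 times the rpm of the knockout over the pooled libraries (exact 95% counting interval, 5.62 to 87.6), and 89.4% of its wild-type reads shared a peak. Ptpn22, an inhibitor of proximal signalling, had 7, 8 and 2 wild-type reads and none in the knockout, which is at least 2.08-fold lower. Ptpn6 (SHP-1) had 33 reads against 0. A list of 14 published miR-181 targets, which includes Dusp5 and Ptpn22, had 277 reads against 7. Wild-type miR-181 reads were found in 10 of these genes, and the 3 that were tested, Dusp5 and Mcl1 among them, were lower. Over all tested spans 99.6% were lower.

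Smaller lists followed the same course. Survival genes had 159 reads in wild type against 5 in the knockout over 11 genes, with 36, 17 and 14 against 0, 0 and 1 in Mcl1. Genes of migration and egress had 169 against 7 over 11 genes. Among these Ccr7, the receptor that guides mature T cells, had 27, 9 and 10 against 1, 1 and 0. S1pr1 and Cd69, which act on thymic exit in opposite directions, had 16 and 14 wild-type reads and none in the knockout. Recombination genes had 152 against 3 reads over 3 genes, most of them in Rag1 (70, 36 and 21 against 1, 0 and 1). Cytokines and their receptors had 382 against 8 over 15 genes, and the Notch pathway with Tle corepressors 344 against 10 over 12. The miRNA machinery had 391 against 19 over 12 genes, and 5 of 5 tested members were lower, as were 99.6% of all tested spans. Of these members, Tnrc6b had 80, 37 and 22 reads against 3, 4 and 1, Ago2 29, 23 and 18 against 4, 1 and 0, and Dicer1 25, 15 and 12 against 0.

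Other genes with high miR-181 contacts lay outside these lists. Mbnl1, a splicing regulator, had 120, 92 and 49 reads against 1, 4 and 3. Arhgap15, a Rac GTPase-activating protein, had 100, 57 and 61 against 5, 1 and 3, Foxp1 94, 64 and 41 against 0, 1 and 4, and Glcci1 78, 63 and 64 against 0, 3 and 2. The nuclear long noncoding RNA Malat1 had 107, 63 and 44 against 0, 6 and 0. Hipk1, a nuclear kinase, had 61, 48 and 36 reads in wild type and none in the knockout, which is at least 19.3-fold lower. Camk4, a calcium-dependent kinase, had 77, 41 and 42 reads against 0, 1 and 0, or 178 times the rpm of the knockout over the pooled libraries (exact 95% counting interval, 31.5 to 7080). Rn18s-rs5, an 18S ribosomal RNA copy with 92, 78 and 37 against 1, 2 and 1, shares its sequence with other copies and its reads may belong to any of them.

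**Figure D2:**
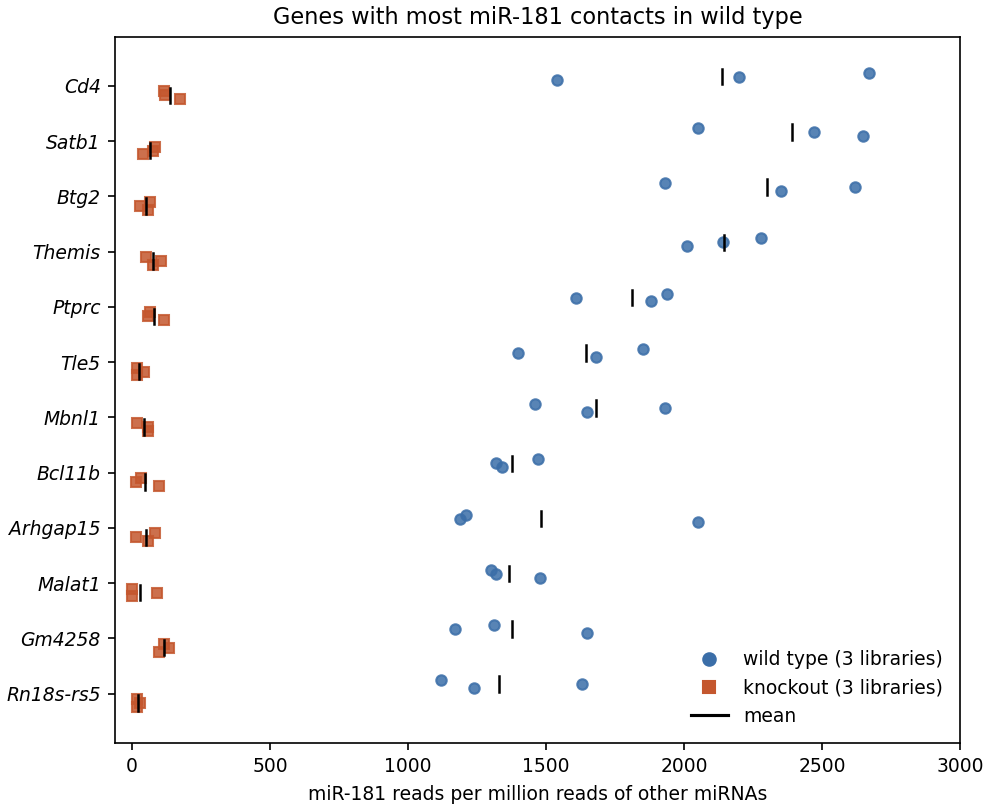
miR-181 reads per 1000000 reads of other miRNAs in the 12 genes with most wild-type miR-181 reads, hairpins left out, 1 point per Ago2 IP library and a line at each mean of 3. Every wild-type library lay above every knockout library, and groups did not overlap in 99.6% of all tested spans. Cd4 and Gm4258 had the highest knockout means, 137 and 116.

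A few genes kept a larger part of their miR-181 contacts than the family as a whole. Scaled to miR-181 reads alone, 7 of 78 tested spans differed (edgeR, adjusted p at most 0.05). On this scale a few reads in each knockout library were enough to pass the filter. Mir181a-2 and Ddit4 entered only with their knockout reads, the side on which they were higher. The 7 calls therefore describe the tested spans and not all genes. Relative to the family, higher spans were Mir181a-2 (log2 fold change 5.41), Ddit4 (1.89, SE 0.552; adjusted p = 0.0139), Atrx (1.56, SE 0.522; adjusted p = 0.0336) and Gm4258 (1.48, SE 0.449; adjusted p = 0.0171). Atrx, a chromatin remodeller, had 66, 36 and 24 reads in wild type against 3, 5 and 5 in the knockout. Of its knockout reads 5 were miR-181a-5p or b-5p and 8 c-5p or d-5p, and miR-181a-5p made 46.8% of its wild-type miR-181 reads. Ddit4, an inhibitor of mTOR signalling, had 88 and 12 reads. Contacts of other miRNAs were also higher in the knockout on Gm4258 (log2 fold change 1.14), so its relative gain was not particular to miR-181. For other miRNAs Atrx had 0.54 (edgeR adjusted p = 0.279) and Ddit4 -0.297 (adjusted p = 0.767), neither of them called. Mir181a-1, Mir181b-1 and Hipk1, each with 0 knockout reads, were relatively lower. For Cd4 the relative change was 0.97 (SE 0.458), which did not pass (edgeR adjusted p = 0.216).

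Contacts of other miRNAs changed in few genes. Of 1348 spans tested, 12 were higher in the knockout (0.89%) and 18 lower (1.34%), so that 2.23% were called in either direction (edgeR, adjusted p at most 0.05), and 167 had an unadjusted p under 0.05. Some called spans passed the filter only through the group where they were higher. Gm34353 did so through the knockout, and TrnG, Cacna1e, Gm38396, Lonrf1 and Phb2 through wild type. These shares therefore describe the tested spans and not all genes. The median log2 fold change over all tested spans was 0.00, and 80% lay between -0.46 and 0.47. Groups did not overlap in 28 of the 30 called spans, against 242 of all 1348 (18.0%). DESeq2 called 6 spans, 2 of them higher. Leaving out knockout library 1 or 2 gave 17 and 16 calls, of which 14 and 12 were among the 30, and 2 and 3 were higher.

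**Figure D3:**
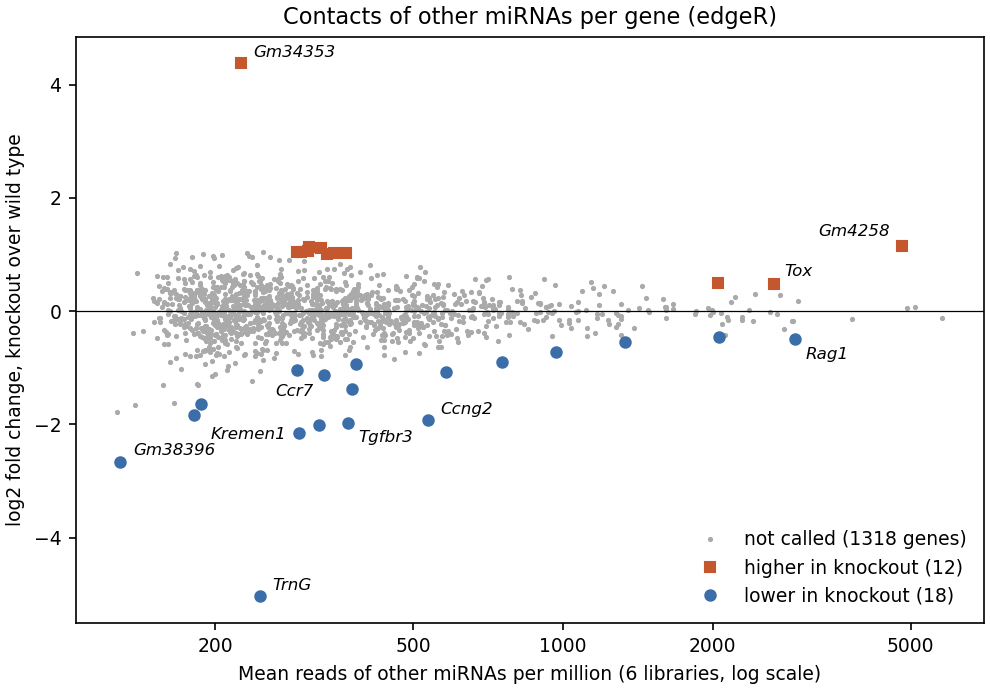
Log2 fold change of other-miRNA contacts per gene span (knockout over wild type, edgeR) against the mean rpm over 6 libraries (log axis), for 1348 spans. Squares mark the 12 spans called higher and circles the 18 called lower, and the remaining points lie around 0.

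The strongest gains lay next to the deleted hairpins. Gm4258, a long noncoding RNA gene whose span ends 3435 nt before Mir181a-1 (chromosome 1, 137898464 to 137963020, plus strand), had 224, 140 and 104 reads of other miRNAs in wild type against 382, 413 and 363 in the knockout. This was 3050 ± 398 against 6540 ± 464 rpm (SD, n = 3), a log2 difference of 1.14 (SE 0.0968; edgeR adjusted p = 2.47e-24), without overlap. The gain was spread along the gene, whose densest peak held 7.20% of reads, and over miRNAs, with 216 and 550 reads of miR-142a-3p and 252 and 608 of all others. Its miR-181 contacts went the other way, from 213 to 21 reads. Gm34353, a long noncoding RNA gene that starts 27117 nt after the hairpins (137993835 to 138009778, plus strand), had 1, 1 and 1 reads in wild type against 25, 32 and 20 in the knockout. Over the pooled libraries the ratio of rpm was 23.0 (exact 95% counting interval, 7.60 to 114). Both genes kept their calls in each of 15 alternative settings, which do not include scaling to all chimeric reads.

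The same held between and around these genes. On the plus strand, the 10000 nt before the hairpins had 725 ± 116 rpm of other miRNAs in wild type and 2090 ± 195 in the knockout (SD, n = 3), 2.89-fold more. The stretch from there to 70000 nt before them, most of which is Gm4258, had 2610 ± 325 and 5340 ± 314, 2.05-fold more. In the 10000 nt after the hairpins the values were 296 ± 34.8 and 1280 ± 124, and from there to 50000 nt 89.5 ± 49.2 and 1650 ± 311, ratios of 4.33 and 18.4. In each of these windows every knockout library lay above every wild-type library (exact permutation p = 0.1 for each). Between the start of Mir181a-1 and the end of Mir181b-1 other miRNAs had 8 wild-type reads and 0 in the knockout.

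The remaining higher genes lay elsewhere in the genome. Tox had 186, 125 and 51 reads of other miRNAs in wild type against 203, 193 and 157 in the knockout, or 2200 ± 457 and 3110 ± 250 rpm, a log2 difference of 0.47 (SE 0.118; edgeR adjusted p = 0.00852). It was the only one of 14 tested transcription factors of T cell development with a call for other miRNAs, and neither Tcf7 (0.44; edgeR adjusted p = 0.11) nor Ets1 (0.58; adjusted p = 0.0826) passed. Itpr2, an endoplasmic calcium channel, had 126, 92 and 51 reads against 161, 155 and 108 (log2 fold change 0.49). Cep350, a centrosomal protein gene, had 16, 11 and 6 against 34, 30 and 16 (1.11). Tmcc1, Tasp1, Gramd1b, Zfp704, Immp2l and Hsd11b1 were also called, with log2 fold changes from 1.01 to 1.06. The hairpin of Mir18b had 16, 11 and 5 against 25, 48 and 6 reads, and its groups overlapped. Apart from Gm4258 and Gm34353, each higher call was lost in at least 3 of the 6 fits that left out 1 library.

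Among the lower genes, Ccng2, Tgfbr3 and Cacna1e passed in the same 15 alternative settings. Ccng2, an unconventional cyclin linked to growth arrest, had 74, 31 and 30 reads of other miRNAs in wild type against 21, 9 and 9 in the knockout. Its level fell from 852 ± 183 to 220 ± 114 rpm (SD, n = 3; log2 fold change -1.93, SE 0.261; edgeR adjusted p = 3.65e-10), without overlap. In its main peak (chromosome 5, 93270882 to 93270990, plus strand) the reads were 105 and 18. Several miRNAs took part, with miR-142a-3p at 27 and 12 reads and miR-20a-5p at 21 and 6.

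Tgfbr3, a TGF-beta coreceptor, had 43, 34 and 16 reads against 7, 8 and 11 (log2 fold change -1.98, SE 0.304; edgeR adjusted p = 5.91e-08). Its main peak (chromosome 5, 107107918 to 107108044, minus strand) had 58 wild-type and 6 knockout reads. miR-20a-5p had 22 and 2 reads on the gene, and miR-17-5p, of the same seed, 18 and 0. Cacna1e, a calcium channel subunit, had 39, 24 and 18 reads against 10, 8 and 4 (log2 fold change -2.02). These were dispersed over a span of 493980 nt, and the densest peak held 4.85% of them. Kremen1, a Wnt pathway receptor for Dickkopf, had 42, 29 and 10 reads against 6, 13 and 1 (log2 fold change -2.14), which DESeq2 did not call.

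The mitochondrial transfer RNA gene TrnG (mitochondrial genome, 9391 to 9458) had 26, 25 and 18 reads of other miRNAs in wild type against 1, 1 and 0 in the knockout. Over the pooled libraries the ratio of rpm was 38.4 (exact 95% counting interval, 10.2 to 324). All 71 reads lay at 7 neighbouring positions at the end of the gene. With identical reads counted once TrnG had too few reads to be tested, and only 7 positions limit how many distinct reads it can have.

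Rag1, Ccr7 and Klf3 had smaller losses than these genes. Rag1, a subunit of the V(D)J recombinase, had 267, 176 and 100 reads of other miRNAs in wild type against 150, 158 and 124 in the knockout. Its level was 3430 ± 231 against 2430 ± 66.9 rpm, without overlap (log2 fold change -0.49, SE 0.113; edgeR adjusted p = 0.00305). Ccr7 had 37, 22 and 14 reads against 13, 17 and 7 (log2 fold change -1.13, SE 0.292; adjusted p = 0.0122), and its main peak, which held 59.1% of them, had 45 and 20. Klf3, a transcriptional repressor, had 78, 43 and 33 against 22, 37 and 33 (log2 fold change -0.89), with 87 and 26 reads in its main peak. Zdhhc14 (-1.37), Brwd3 (-1.07) and Lonrf1 (-1.84) were also called lower, none of them by DESeq2. In the 6 fits that left out 1 library, Zdhhc14 was called in 6, Brwd3 in 5 and Lonrf1 in 2. Cd8a (-0.72) and Cd247 (-0.55) were called outside the naming rule, as were Phb2, Abcg1, Pde3b and Glcci1. Leaving out 1 library ended the call of Rag1 in 1 of 6 fits, without wild-type library 2 (edgeR adjusted p = 0.0536), and that of Ccr7 in 2, without knockout library 1 or 3 (adjusted p up to 0.159). Cd8a and Cd247 were each called in 2 of these 6 fits and were not called by DESeq2, and Cd247 was not called with sample numbers as a block.

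The other members of the lists did not pass for other miRNAs. Of 13 tested genes of the T cell receptor list, only Cd8a and Cd247 were called, with a list median of 0.00, as over all spans. Cd4 had a log2 fold change of -0.42 (edgeR adjusted p = 0.422) and Ptprc of 0.31 (adjusted p = 0.184). Of the migration list 1 of 5 tested genes, Ccr7, was called, and of the recombination list 1 of 2, Rag1. Over all tested spans 2.23% were called. No call was made among 6 tested published targets, 7 phosphatases, 6 genes of the miRNA machinery, 9 of cytokines and receptors, 4 of survival, 4 of the Notch list and 1 of the Btg list. Their list medians lay between -0.28 and 0.12.

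**Figure D4:**
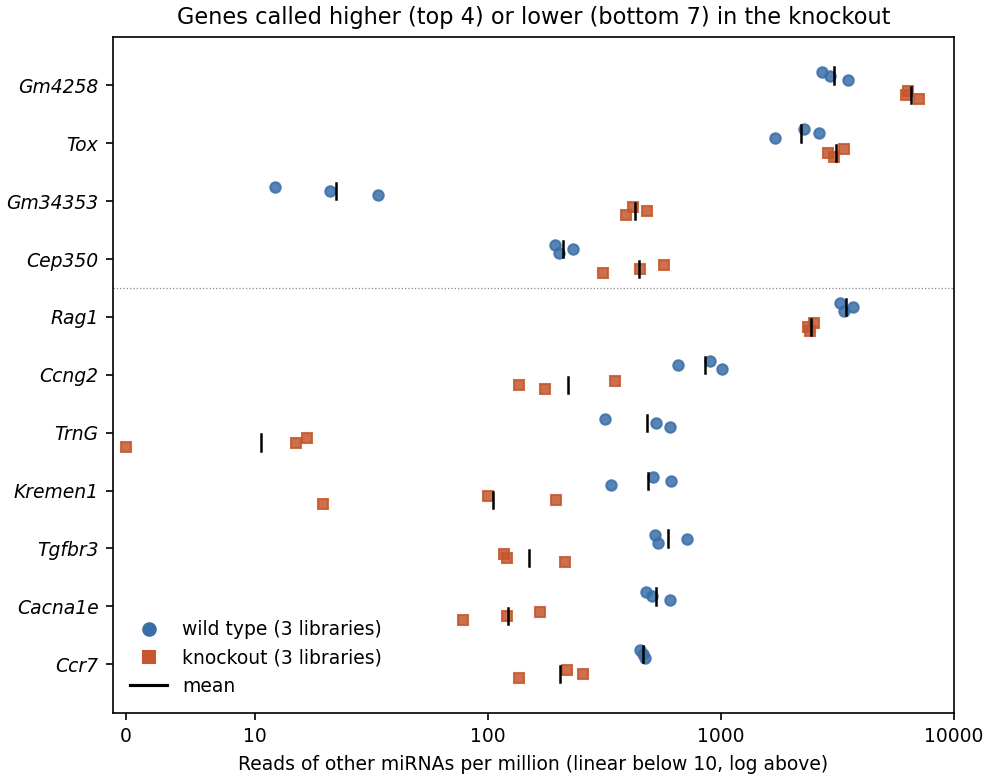
Contacts of other miRNAs in rpm in 4 genes called higher (above the dotted line) and 7 called lower in the knockout, 1 point per Ago2 IP library with a line at each mean of 3. The axis is linear below 10 and logarithmic above it. Only called genes whose groups did not overlap were eligible, and groups did not overlap in 18.0% of all 1348 tested spans.

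Gene length and the spread of contacts were set side by side for the called spans, with no test. The 11 higher spans other than the hairpin had a median length of 183076 nt, and 7 were among the longest 25% of all tested spans. Their densest peak held a median 7.41% of reads. The 18 lower spans had a median length of 46794 nt, 9 were among the shortest 25%, and the densest peak held a median 33.6%. Over all 1344 tested spans that are not hairpins the medians were 80596 nt and 12.3%. These spans, called or not, showed no trend with length. In 4 classes of 336 spans, from shortest to longest, the median log2 fold change was 0.017, -0.02, -0.015 and 0.006.

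Genes were also compared by how much of their contacts miR-181 had made. Each gene was given an index, its wild-type miR-181 level divided by the sum of that level and its mean other-miRNA level over both genotypes. A lower level of other miRNAs in the knockout raises this index by itself, so the classes are not independent of the change compared. The miR-181 level, here and in the other classings below, comes from wild type alone. In the 42 genes with an index over 0.5, the median log2 fold change of other-miRNA contacts was -0.309, and 33.3% of the values were positive. In 97 genes with an index under 0.1 the median was 0.054, in 504 genes from 0.1 to 0.25 it was 0.049, and in 701 genes from 0.25 to 0.5 it was -0.035. Over all 1344 genes it was -0.001. Of the 42 genes 1 was called lower and 0 higher (2.38%, against 2.16% of the 1344). With the index taken from the enriched libraries, 3 of 61 genes over 0.5 were called, all lower (4.92%). In 4 classes of 336 genes by wild-type miR-181 level alone, 2, 1, 3 and 12 genes were called lower, from the lowest level to the highest, and 2, 1, 5 and 3 higher. The gene called among the 42 was Gm38396, where miR-181 had made 66.4% of wild-type contacts and reads of other miRNAs were 18, 12 and 6 against 2, 2 and 2.

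The position of the contacts within genes was compared next. miR-181 sites were defined from the 3 enriched wild-type libraries, which are not part of the comparison, as runs of miR-181 reads at most 20 nt apart with at least 10 reads in each library. There were 1389 sites in 922 genes, with a median width of 96 nt and 144937 nt in all. Reads of other miRNAs inside these sites were 4.57%, 4.50% and 4.66% of all such reads in wild type and 3.81%, 3.66% and 3.54% in the knockout. The mean was 4.58% ± 0.0811 against 3.67% ± 0.135 (SD, n = 3), a ratio of 0.802, and every knockout library lay below every wild-type library (exact permutation p = 0.1, adjusted p = 0.2 over 4 measures). Outside the sites in the same genes the shares were 29.6% ± 0.291 and 29.1% ± 0.35, a ratio of 0.98, with overlap (exact permutation p = 0.2). The labels do not say whether the enriched and unenriched libraries share cells.

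The difference was smaller outside the sites. The ratio of knockout to wild type was 0.802 inside the sites, 0.873 at 1 to 50 nt, 0.849 at 51 to 200 nt and 0.927 at 201 to 1000 nt, without overlap of the groups at any of these distances. Inside the sites it was larger with a larger part of miR-181 in a site's contacts. This part was computed as for genes, with the level of miR-181 from the enriched libraries rescaled to the wild-type Ago2 IP. A lower level of other miRNAs in the knockout therefore raises the part of a site too, and the classes are not independent of the ratio. In 105 sites with a part of at most 0.5, other miRNAs had 30500 ± 576 rpm in wild type and 28400 ± 905 in the knockout, a ratio of 0.931. In 141 sites from 0.5 to 0.75 the ratio was 0.636, and in 240 sites from 0.75 to 0.9 it was 0.515. In 903 sites with a part over 0.9, where other miRNAs had 613 and 249 reads in all, the values were 3510 ± 988 and 1380 ± 201, a ratio of 0.393. Groups did not overlap in any of the 4 classes.

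Several miRNA families shared this lower share at miR-181 sites. For miR-142a-3p, 5.03% ± 0.208 of wild-type and 3.99% ± 0.129 of knockout reads lay inside the sites (SD, n = 3), a ratio of 0.793. With families taken by shared seed, let-7 had a ratio of 0.786, the miR-30 family 0.727, and the family of miR-17 and miR-20a 0.821, each without overlap of the groups. For the families of miR-19 (0.661) and miR-16 (0.89) the groups overlapped. None of the 7 groups of miRNAs could pass an exact permutation test at these numbers (smallest p = 0.1, adjusted p = 0.14). The miR-181 reads that remained in the knockout lay inside the sites at least as often as in wild type, 24.3% ± 0.764 against 21.5% ± 0.308, without overlap. For miR-181c-5p and d-5p alone the shares were 25.1% ± 2.53 and 22.0% ± 2.42 (exact permutation p = 0.3).

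**Figure D5:**
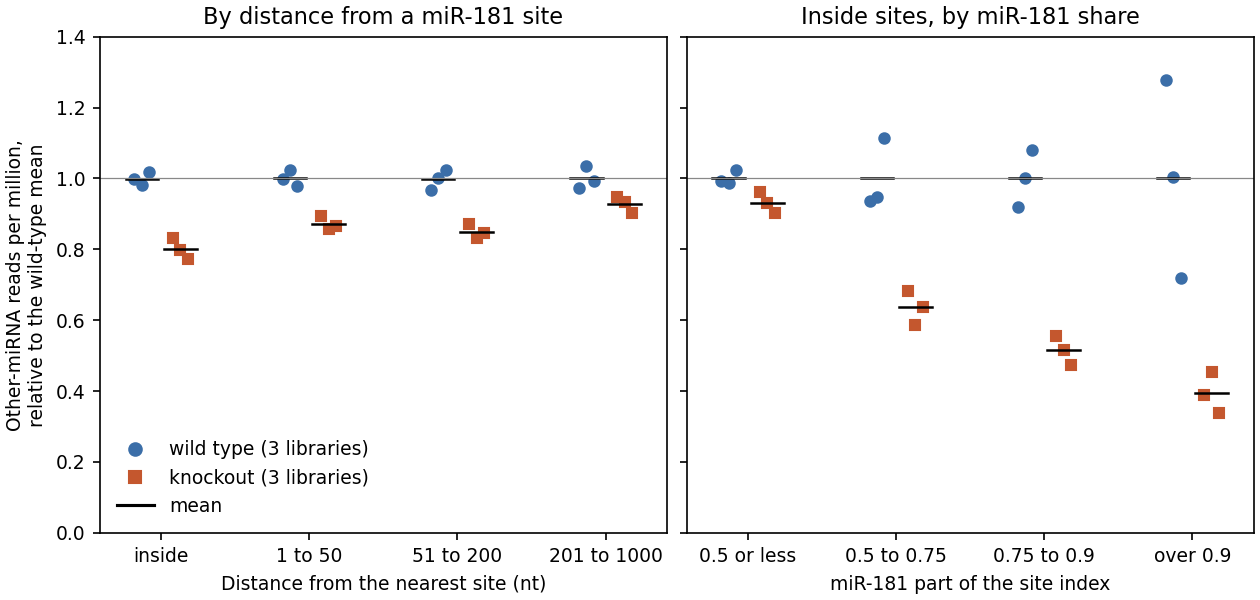
Contacts of other miRNAs in rpm, relative to the wild-type mean, at and around 1389 miR-181 sites (left, by distance in nt) and inside the sites by the part of miR-181 in their contacts (right), 1 point per Ago2 IP library and a line at each mean of 3. The ratio of knockout to wild type was 0.802 inside the sites, and it went from 0.931 in the lowest class to 0.393 in the highest. A lower level of other miRNAs in the knockout raises the part of miR-181 in a site, so the classes are not independent of the ratio.

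The other miRNAs themselves largely kept their proportions. Of 119 tested, 4 were higher (3.36%) and 3 lower (2.52%) in the knockout, 5.88% in all (edgeR, adjusted p at most 0.05), and 35 had an unadjusted p under 0.05. miR-142a-3p, the most abundant, had 400000 ± 5020 rpm in wild type and 401000 ± 10300 in the knockout (SD, n = 3), and with miR-16-5p, miR-20a-5p, let-7a-5p and miR-17-5p it was not called. However, miR-16-5p (log2 fold change -0.10), miR-20a-5p (-0.12) and let-7a-5p (-0.16) were lower in the knockout without overlap of the groups. Their edgeR adjusted p-values were 0.0736, 0.0726 and 0.0649, so the missing calls do not show that their levels were equal. Besides miR-181a-1-3p, miR-342-3p (log2 fold change -0.71, SE 0.182) and miR-150-5p (-0.37, SE 0.0958) were called lower, both at an edgeR adjusted p of 0.05. miR-150-5p had 436, 223 and 151 reads against 228, 299 and 189, and it is known to rise as lymphocytes mature. Called higher were miR-125b-5p, with 6, 3 and 2 reads against 13, 15 and 13 (1.67, SE 0.298; adjusted p = 0.0124), miR-466a-3p (0.42), miR-466p-3p (0.65) and miR-191-5p (0.30). The filter was passed by miR-125b-5p only through its knockout reads and by miR-181a-1-3p only through its wild-type reads. Of the 7 calls only miR-181a-1-3p held in each fit that left out 1 library, and DESeq2 called 2 miRNAs, of which 1 was among the 7.

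The seeds of called and abundant miRNAs (capitals) are set beside that of miR-181, ACAUUCA, to show that none of those printed shares it.
miR-142a-3p: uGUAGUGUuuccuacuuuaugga
miR-17-5p: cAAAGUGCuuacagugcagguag
miR-20a-5p: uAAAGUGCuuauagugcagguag
miR-125b-5p: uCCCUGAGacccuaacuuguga
miR-191-5p: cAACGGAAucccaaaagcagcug
miR-342-3p: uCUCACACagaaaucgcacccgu
miR-17-5p and miR-20a-5p share a seed, and both had fewer reads on Tgfbr3 in the knockout.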

How the data were processed

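The deposited files hold read counts, with 1 chimeric read on every line as a count of 1 beside its miRNA, strand and 1-nt position, unscaled and not pooled. Per the submitters' processing notes, the tools were Bowtie2 2.4.5, STAR 2.7.10, SAMtools 1.11, UMI-tools 1.1.1 and bedtools 2.30.0, with builds mm10 and GRCm38.p6. Which tool did what is not given in the sources used here. Repeats of a position with the same miRNA made 3.24% to 4.72% of a library and were kept.

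Reads were counted over RefSeq spans of GRCm38.p6, miRNA hairpins first, then a lone protein-coding gene, then any lone gene. Of 411434 reads, 93.5% received a name, and 97.8% of the reads with a known gene strand lay on it. Strand was otherwise ignored, so an antisense partner cannot always be told apart. Spans hold no exons: exon, intron and UTR classes were not analysed here.

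Counts were compared with edgeR 4.0.16 in R 4.3.3 (quasi-likelihood F test, filterByExpr with a minimum count of 10, Benjamini-Hochberg adjustment over all spans tested). Library sizes were the reads of other miRNAs, with TMM factors from them, between 0.986 and 1.02 for genes. DESeq2 1.42.0, other scalings, filters and assignments and single left-out libraries were alternatives. The models were tested on simulated counts. Shares were compared by exact permutation tests. Where the knockout had 0 reads, folds are bounds against 3 reads per library, and where it had 1 to 3, ratios are of rpm over the pooled libraries with counting intervals. Intervals and bounds cover counting error only.

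The labels do not say that sample numbers pair the genotypes, and the main fits used no pairing. Deviations of same-numbered libraries correlated at -0.066, 0.026 and 0.007. Libraries of 1 genotype differed little beyond counting error (chi-square over degrees of freedom, 1.06 to 1.149), so these correlations could not exclude pairing. Named genes were the 12 with most wild-type miR-181 reads, the 10 of smallest p without overlap, the 5 with most knockout reads, up to 12 called genes per direction for other miRNAs without overlap, and list members with at least 10 wild-type reads. Members and lists were chosen with earlier results of these data known, and the site comparison was added after the data were seen. Results for 1 gene are not reported here.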

Additional observations from a re-analysis of the deposited data

How the results depend on the processing

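Losses of miR-181 contacts in the 36 named genes that were tested kept their direction and call under each alternative that tested them (35 without wild-type library 1), except scaling to miR-181 reads alone, which takes the overall loss out. Under that scaling 7 of 78 spans were called, and 12 named genes turned positive: Cd4 (0.97), Themis (0.22), Ptprc (0.47), Bcl11b (0.05), Arhgap15 (0.20), Gm4258 (1.48), Atrx (1.56), Cd247 (0.23), Tox (0.71), Tcf12 (0.20), Ets1 (1.02) and Tnrc6b (0.74). Without a filter 2494 spans were called lower, and leaving out 1 library gave 299 to 443. For other miRNAs, scaling to all chimeric reads raised the median by 0.51, gave 413 higher and 7 lower calls (420 in all) and moved Rag1 to 0.02. DESeq2 called 6 genes, and leaving out 1 library gave 16 to 27 calls. Of the 12 higher and 18 lower calls, 2 and 6 held in every fit that left out 1 library. Among single miRNAs, DESeq2 called 2, no filter gave 20, and leaving out 1 library 1 to 17. miR-142a-3p moved to 0.00 with library sizes alone, and miR-17-5p lay between -0.08 and 0.01 (without wild-type library 1) when 1 library was left out. With sample numbers as a replicate block, 274 spans were called for miR-181, 28 genes for other miRNAs (11 higher, 17 lower) and 21 single miRNAs. The median of -0.309 in the highest index class was -0.285 with the index from enriched libraries and -0.074 in the highest 25% by miR-181 level alone. The lower share of other miRNAs inside miR-181 sites, -0.907 percentage points, lay between -0.977 and -0.843 when 1 library was left out, at -0.943 with identical reads counted once, at -0.921 in sites at least 20 nt wide and at -0.565 in the 367 sites with at least 30 reads per library (fewer sites), where the ratio was again 0.802. The cause was not tested for any of these changes. Depth limits single genes: 3 reads correspond to 36.4 to 101 rpm, and 7782 genes had too few miR-181 reads for the test.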
